A study of Mus musculus with 32 samples.

Results

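The 9 genes described here, Glo1, Mrgprh, Wiz, A930015D03Rik, 2410017I17Rik, Gm6475, Gm19684, Gm8909 and Gm10499, lie on mouse chromosome 17 outside the H2 family, which encodes the mouse major histocompatibility complex, and were chosen by their read counts in brain arteries, which differed between Notch3-/- and Notch3+/+ mice at 3 months of age. They are 9 of the 55357 genes counted and 9 of the 21 chromosome 17 genes, other than Notch3 and the H2 genes, that passed an adjusted p of 0.05 in that comparison. Since that comparison selected them, their values in it are given as a description, and the tests below concern the second mutant line.

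RNA was sequenced from dissected mouse brain arteries of 4 untreated groups with 8 libraries each, 1 mouse per library. Notch3-/- mice, in which both copies of Notch3 were inactivated, were sampled at 3 months with Notch3+/+ controls. TgNotch3R169C mice, a model of the inherited small vessel disease CADASIL, were sampled at 12 months with wild-type (WT) controls. TgNotch3R169C mice carried rat Notch3 with the Arg169Cys mutation as extra copies on an artificial chromosome integrated on the X chromosome, and kept both copies of the mouse gene. The controls were described as littermates, both lines had been repeatedly backcrossed to C57BL/6, the transgenic line started on FVB/N, and the sex of single mice is not in the labels. Age and line differ together between the 3-month and 12-month sets, so these cannot be told apart when levels are set side by side across them.

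Notch3 is a receptor of vascular smooth muscle cells that is cleaved upon ligand binding and then acts on transcription. It lies on chromosome 17, which also holds the H2 complex with its many near-identical class I genes, pseudogenes and antisense transcripts. Genes close to a targeted locus are inherited with it through backcrosses, so an allele carried along on chromosome 17 and the loss of Notch3 occur in the same Notch3-/- mice and cannot be told apart by this design. Glo1 encodes glyoxalase 1, which detoxifies methylglyoxal together with glutathione, and in some inbred strains a stretch of chromosome 17 that includes it is present in extra copies. Wiz encodes a zinc finger protein that works with the histone methyltransferases of the G9a/GLP complex, and Mrgprh encodes a Mas-related G protein-coupled receptor. The other 6 genes are less well described: the annotation lists A930015D03Rik as an antisense RNA, 2410017I17Rik as a long intergenic RNA, Gm6475 and Gm10499 as pseudogenes, and Gm19684 and Gm8909 as protein coding.

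The libraries held 20289487 to 54481934 counted reads. Notch3 itself had 16.2 CPM (counts scaled to library size, with TMM factors over all 32 libraries) on average in Notch3-/- and 83.5 in Notch3+/+ mice, with a log2 fold change of -2.37, and 181 CPM in TgNotch3R169C against 72.9 CPM in WT mice, with a log2 fold change of 1.31. Reads were aligned to the mouse genome, so the TgNotch3R169C count may mix mouse Notch3 reads with those rat transgene reads that aligned. All 8 smooth muscle markers examined were detected. Their summed level was 1660 to 2580 CPM in Notch3-/- and 2440 to 4320 CPM in Notch3+/+ mice, 6 of the 8 passed the test as lower in Notch3-/-, and in bulk RNA fewer smooth muscle cells and less RNA per cell cannot be told apart. Of 5 pericyte markers, 1 was called, as higher. Choroid plexus markers ranged from 223 to 24600 CPM within Notch3-/- and from 311 to 642 CPM within Notch3+/+ libraries, with 0 of 5 called by edgeR, 3 at an unadjusted p under 0.05 and 1 called by DESeq2. At 12 months they ranged from 255 to 13700 CPM (median 307) in TgNotch3R169C and from 261 to 25300 CPM (median 4680) in WT mice, with 0 called. Smooth muscle markers there summed to 1090 to 1760 CPM in TgNotch3R169C and 1360 to 2070 CPM in WT mice, with 0 called and 3 at an unadjusted p under 0.05.

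At 3 months all 9 genes passed the low-count filter and were called by edgeR, 8 as higher and 1, Mrgprh, as lower in Notch3-/- mice. Over all 17714 genes tested, 0.649% were called, 0.198% as higher and 0.452% as lower. The ranges of the 8 Notch3-/- and 8 Notch3+/+ libraries did not overlap for any of the 9, against 0.339% of all genes tested. The median absolute log2 fold change was 2.21 for the 9 genes and 0.06 over all genes tested. These counts follow from how the genes were chosen. 2410017I17Rik and Gm8909 had at most 8 and 5 reads in a Notch3+/+ library, and Gm6475 and Gm10499 had 4 reads in their lowest one. These genes passed the filter through the Notch3-/- libraries, where they were high. The shares over all genes are thus no like-for-like background for them. An adjusted p under 0.05 did not by itself define the 9 genes. Gm20219 and 9130008F23Rik, which are not among them, were just inside this threshold, with log2 fold changes of 0.60 and -1.14. AC154200.1 and Pi16 were just outside it, with 1.24 and 0.80. Per kb of annotated exon and averaged over the 32 libraries, Glo1 and Wiz had the highest levels of the 9, 6.45 and 6.32 CPM per kb, and 2410017I17Rik the lowest, 0.108 CPM per kb.

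**Figure D1:**
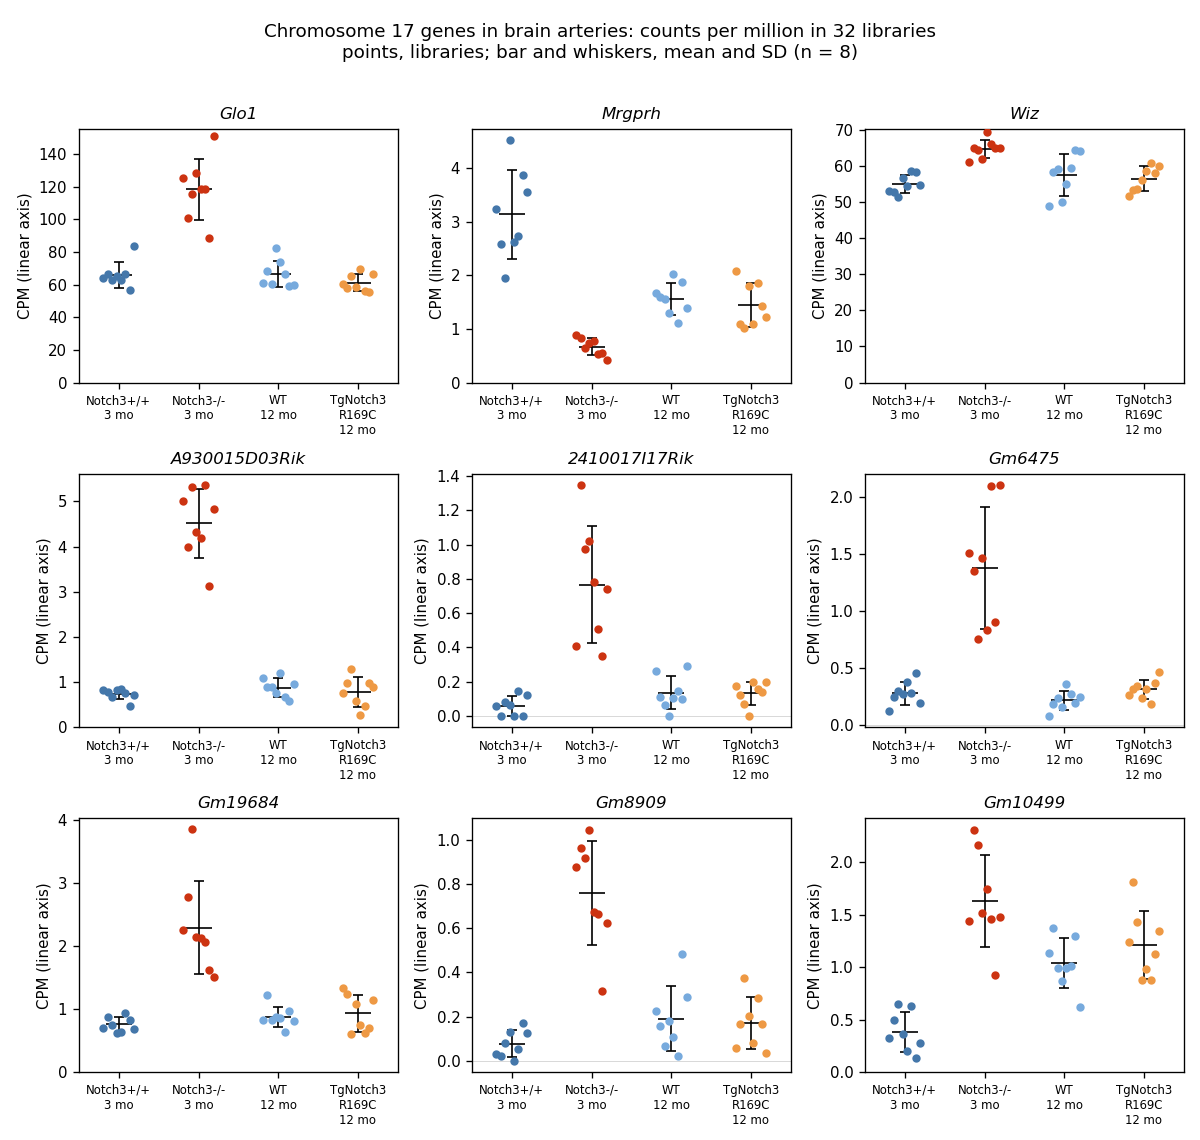
CPM of each of the 9 genes (linear axes from 0) in the 4 groups, with 1 point per library and the mean and SD (n = 8) as a bar with whiskers. Notch3-/- libraries stand above the other 3 groups at most genes and below them at Mrgprh, while the 12-month groups approach or overlap the Notch3-/- range at Gm10499, Gm8909 and Wiz.

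Glo1 was higher in Notch3-/- mice. Its lowest, median and highest levels were 88.5, 118.7 and 150.9 CPM in Notch3-/- mice and 56.6, 64.8 and 83.5 CPM in Notch3+/+ mice. All 8 Notch3-/- libraries were above all 8 controls, although the highest control, Notch3+/+ replicate 8, came close to the lowest Notch3-/- library. In the 12-month groups the corresponding levels were 55.3, 59.5 and 69.7 CPM in TgNotch3R169C and 59.2, 63.8 and 82.2 CPM in WT mice, inside or near the 3-month control range. The log2 fold change between Notch3-/- and Notch3+/+ mice was 0.84 (SE 0.094), or 1.79-fold.

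A processed copy of the Glo1 transcript, Gm13443 on chromosome 2, matched the Glo1 coding sequence at all but 3 of 552 aligned bases, which is 99.5% identity in the GRCm38 transcripts. A read that covers none of the differing positions does not separate the genes. Gm13443 was counted at 1.94 to 4.79 CPM in Notch3-/- libraries, at 0.0662 to 0.173 CPM in 7 of the Notch3+/+ libraries and at 1.38 CPM in replicate 8. For each 100 reads on Glo1, Gm13443 had a median of 2.93 reads in Notch3-/-, 0.199 in Notch3+/+, 0.228 in TgNotch3R169C and 0.202 in WT mice, so its counts differed between Notch3-/- and control libraries by more than those of Glo1.

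Genes beside Glo1 were read from a list of 3 that are copied with it in some inbred strains. Dnah8, which encodes an axonemal dynein heavy chain and overlaps Glo1 on the opposite strand in the annotation, was called as higher in Notch3-/- mice, with 12.5 to 20.3 CPM against 4.40 to 12.9 CPM in Notch3+/+ and a log2 fold change of 1.25 (SE 0.18). Btbd9 and Glp1r, the receptor for glucagon-like peptide 1, were not called, with log2 fold changes of 0.09 (SE 0.059) and -0.85 (SE 0.34). Among the 7 other genes tested within 500 kb of Glo1, Dnah8 and AC165962.1 were called, both as higher. Copy number of the genes was not measured.

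Notch3+/+ replicate 8 stood apart from the other 7 controls at some of these genes but not at all. It had 83.5 CPM of Glo1 against 56.6 to 66.8 in the others, and 12.9 CPM of Dnah8 against 4.40 to 7.31. At AC165962.1, which was also called, replicate 8 had 8.53 CPM, inside the 6.87 to 10.56 CPM of the others. At Btbd9 it had 26.96 CPM, below their 29.55 to 30.56 CPM, and at Glp1r it was inside their range. The clearest separation was at AC165951.1, a chromosome 17 gene 336 kb from Glo1 that was singled out after its values were seen. It had 8.19 CPM in replicate 8, 0 to 0.0884 CPM in the other 7 controls, 7.84 to 20.3 CPM in Notch3-/- and at most 0.0717 CPM at 12 months. Replicate 8 therefore lay 36% of the way from the mean of the other controls to the Notch3-/- mean at Glo1, 64% at Dnah8, 53% at AC165951.1 and 37% at Gm13443. At the other 8 of the 9 genes it lay between -20% and 10% of the way, and its Notch3 level, 84.9 CPM, was inside the range of the other controls. Without this library the log2 fold change was 0.90 (SE 0.088) for Glo1, 1.44 (SE 0.12) for Dnah8, 4.82 (SE 0.24) for Gm13443 and 9.20 (SE 0.45) for AC165951.1. AC165951.1 was not called with the library included, with a log2 fold change of 3.93 (SE 1.03).

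The Notch3-/- libraries also differed among themselves at the same 4 genes. At AC165951.1, replicates 2 and 7 had 7.84 and 9.66 CPM while the other 6 had 15.8 to 20.3 CPM. Replicates 7 and 2 were also the 2 lowest at Glo1, with 88.5 and 101.0 CPM against 115.8 to 150.9 CPM. They were the 2 lowest at Dnah8, with 12.5 and 13.6 CPM, and at Gm13443, with 1.94 and 2.48 CPM. Across the 8 Notch3-/- libraries, Pearson's r with Glo1 was 0.93 for Dnah8 and 0.91 for Gm13443, values that describe libraries sharing one dissection and sequencing procedure.

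**Figure D2:**
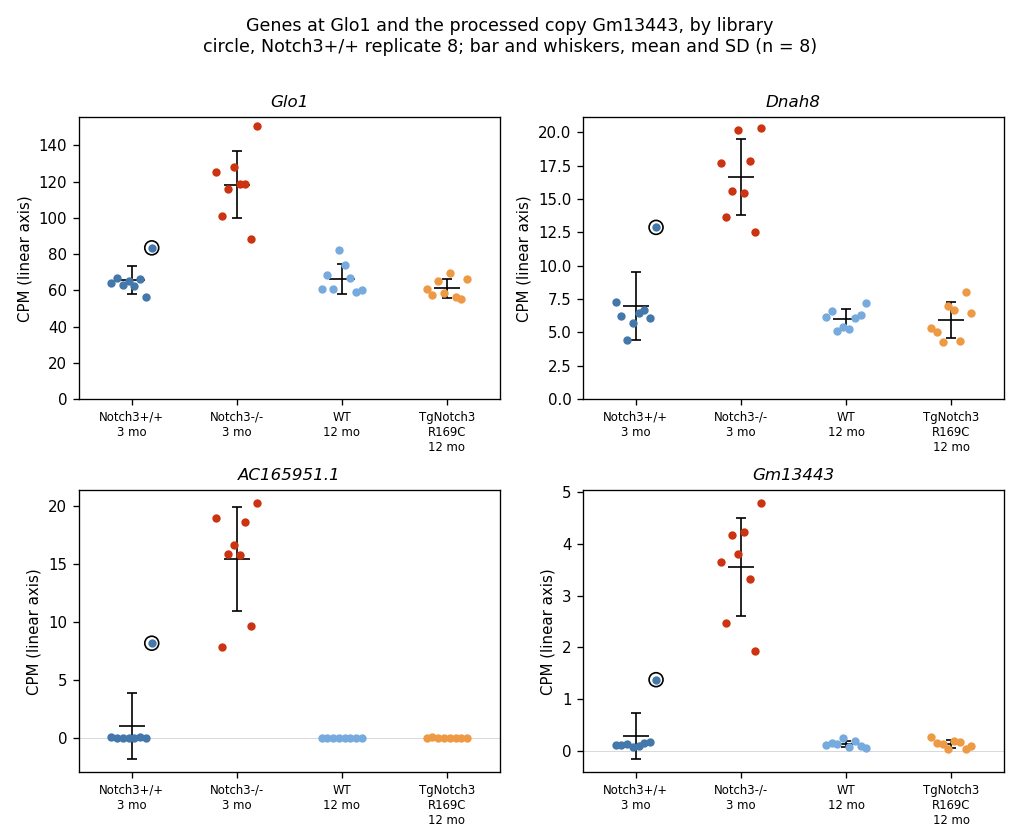
CPM (linear axes) of Glo1, Dnah8, AC165951.1 and the processed copy Gm13443 in the 4 groups, with 1 point per library and the mean and SD (n = 8). The circled point, Notch3+/+ replicate 8, lies apart from the other 7 controls in all 4 panels and reaches the Notch3-/- range at Dnah8 and AC165951.1.

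Of 12 other genes of methylglyoxal handling, all were tested and 0 were called by edgeR or DESeq2 in either comparison. At an unadjusted p under 0.05 in edgeR there were 0 in Notch3-/- and 1 in TgNotch3R169C mice. The aldehyde dehydrogenases Aldh2 and Aldh1a1 had log2 fold changes in Notch3-/- mice of 0.05 (SE 0.055) and 0.07 (SE 0.11), and the aldehyde reductase Akr1a1 had 0.07 (SE 0.047). The list's median log2 fold change was 0.04 in Notch3-/- and -0.08 in TgNotch3R169C mice, beside -0.0011 and -0.0074 over all genes tested.

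Wiz showed the smallest change of the 9. It had 61.0, 64.8 and 69.3 CPM (lowest, median and highest) in Notch3-/- mice and 51.5, 54.5 and 58.5 CPM in Notch3+/+ mice. Each Notch3-/- library was higher than each control, by a narrow margin. The 12-month ranges were 51.5 to 60.9 CPM in TgNotch3R169C and 48.8 to 64.4 CPM in WT mice, and the WT range overlapped that of Notch3-/- mice. The log2 fold change at 3 months was 0.23 (SE 0.033), or 1.17-fold. Wiz starts 0.22 Mb from Notch3, and of the 17 genes other than Notch3 tested within 500 kb of it, AC138228.3 was called, as lower. Wiz overlaps Gm26858 on the opposite strand over 2040 identical bases, so counting without strand could mix them. Of 13 genes that act with WIZ or in H3K9 methylation, 0 were called by edgeR in either comparison, with 2 and 1 at an unadjusted p under 0.05, and DESeq2 called 1 at 3 months, Ehmt2. Ehmt2 itself lies on chromosome 17, 2.73 Mb from Notch3. The heterochromatin protein gene Cbx5 had a log2 fold change of -0.06 (SE 0.038) in Notch3-/- mice, the G9a gene Ehmt2 had 0.09 (SE 0.029) and the corepressor gene Trim28 had 0.05 (SE 0.049).

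Mrgprh was the one gene of the 9 that was lower in Notch3-/- mice. It had 0.428, 0.692 and 0.880 CPM in Notch3-/- mice and 1.94, 2.99 and 4.53 CPM in Notch3+/+ mice. Every knockout library was below every other library of the study. The 12-month groups lay between, with 1.02, 1.32 and 2.09 CPM in TgNotch3R169C and 1.12, 1.58 and 2.03 CPM in WT mice, and the highest library of each reached the 3-month control range. The log2 fold change at 3 months was -2.21 (SE 0.19), and the WT mean at 12 months was 0.50 of that at 3 months. Mrgprh lies 19.29 Mb from Notch3, and 0 of the 14 other genes tested within 500 kb of it were called in Notch3-/- mice by edgeR or DESeq2, with 3 at an unadjusted p under 0.05. None of its 50-base stretches occurred in another annotated transcript. Of the 20 other Mas-related receptor genes, 4 passed the filter and 0 were called by edgeR or DESeq2, with 0 at an unadjusted p under 0.05 in Notch3-/- and 2 in TgNotch3R169C mice. Mrgprf had 56.2 to 94.3 CPM in Notch3-/- and 71.1 to 103.2 CPM in Notch3+/+ mice, with a log2 fold change of -0.11 (SE 0.10), while Mrgpre had -0.04 (SE 0.059) and Mas1, the founding member of the family, -0.02 (SE 0.46).

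Of the other 6 genes, 5 lie in the H2 region, 3.83 to 4 Mb from Notch3, and all 5 were higher in Notch3-/- mice. Some of their neighbours were called too, in windows that largely overlap, beside 0.649% of all genes tested. Of 35 genes outside the 9 tested within 500 kb of A930015D03Rik, edgeR called 5 as higher and 1 as lower, 3 of them H2 genes. There 15 had an unadjusted p under 0.05, and DESeq2 called 11 genes. Near Gm19684, Gm8909, Gm10499 and 2410017I17Rik, edgeR called 4 of 30 or 31 as higher and 1 as lower, and DESeq2 called 9. The edgeR calls were the same genes each time, 2310061I04Rik, Gm20442, H2-Bl, H2-T10 and H2-T24. All of them were also among those near A930015D03Rik, where Cdsn was added. A930015D03Rik, an RNA antisense to H2-T22, had 3.12, 4.58 and 5.36 CPM in Notch3-/- mice and 0.484, 0.767 and 0.842 CPM in Notch3+/+ mice. Both 12-month groups were near the control level, with 0.276 to 1.30 CPM in TgNotch3R169C and 0.579 to 1.21 CPM in WT mice. Its log2 fold change at 3 months was 2.60 (SE 0.14), or 6.06-fold. Of its 50-base stretches, 89.9% also occur on either strand in another annotated gene, and H2-T22, which encodes a nonclassical class I protein, had a log2 fold change of -0.29 with SE 0.068 and was not called by edgeR but was by DESeq2. A930015D03Rik also overlaps H2-T24 on the opposite strand, which was called as higher with a log2 fold change of 1.63 (SE 0.16). The library kit marks strand, but the strand setting of the counting is not given in the sources used here, and without it reads of such partners cannot be told apart.

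Gm19684 had 1.52, 2.14 and 3.87 CPM in Notch3-/- mice and 0.629, 0.732 and 0.942 CPM in their controls. At 12 months it had 0.614 to 1.33 CPM in TgNotch3R169C and 0.643 to 1.22 CPM in WT mice. The lowest Notch3-/- library was thus above every library of the other 3 groups. The log2 fold change at 3 months was 1.58 (SE 0.18). Its closest annotated sequence, Gm6034 on the same chromosome with 96.7% identity over 1629 bases, had a log2 fold change of 0.99 with SE 0.27 and was not called, with a mean of 0.421 CPM in knockout and 0.212 CPM in control mice.

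Gm8909 and Gm10499 both resemble class I genes, with 89.3% identity to H2-D1 and 86.0% to H2-Q4. Their RefSeq promoters (GRCm38.p6, minus strand, 250 bases before to 50 after the start) are shown because the genes are neighbours that were both higher in Notch3-/- mice. The windows could be aligned over 292 bases with 13 substitutions, 95.5% identity, and the capitals mark bases that differ or have no partner.
Gm8909, chr17:36168488-36168787: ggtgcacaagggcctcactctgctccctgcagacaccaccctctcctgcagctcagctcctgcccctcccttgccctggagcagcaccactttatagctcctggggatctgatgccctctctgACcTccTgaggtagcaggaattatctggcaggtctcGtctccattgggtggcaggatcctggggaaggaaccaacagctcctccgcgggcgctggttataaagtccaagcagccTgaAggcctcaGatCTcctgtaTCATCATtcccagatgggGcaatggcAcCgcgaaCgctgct
Gm10499, chr17:36145900-36146199: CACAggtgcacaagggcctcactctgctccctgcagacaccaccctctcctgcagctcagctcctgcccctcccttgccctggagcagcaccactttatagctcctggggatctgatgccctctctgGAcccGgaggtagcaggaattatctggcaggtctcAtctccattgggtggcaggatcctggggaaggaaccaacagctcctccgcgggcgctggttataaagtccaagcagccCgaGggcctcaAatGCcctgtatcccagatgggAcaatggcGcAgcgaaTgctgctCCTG
RefSeq promoters were found for 6 of the 9 genes. The levels of the pair differed across groups, and whether these reference windows play a part was not tested.

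Gm8909 had 0.318, 0.776 and 1.05 CPM in Notch3-/- mice and 0, 0.0682 and 0.173 CPM in Notch3+/+ mice, where a library held at most 5 reads. At 12 months it had 0.0329 to 0.375 CPM in TgNotch3R169C and 0.0208 to 0.483 CPM in WT mice, and 1 Notch3-/- library fell inside each of these ranges. The log2 fold change at 3 months was 3.31 (SE 0.39). Gm20478, annotated over it on the opposite strand and under the edgeR filter, had 0.203 to 0.780 CPM in knockout and 0 to 0.108 CPM in control libraries. Gm10499 had 0.926, 1.497 and 2.31 CPM in Notch3-/- mice and 0.138, 0.344 and 0.648 CPM in their controls, with a log2 fold change of 2.03 (SE 0.27). Its 12-month levels, 0.876 to 1.82 CPM in TgNotch3R169C and 0.627 to 1.38 CPM in WT mice, reached into the Notch3-/- range. The WT mean at 12 months was 2.70 times that at 3 months for Gm10499, 2.48 times for Gm8909 and 2.26 times for 2410017I17Rik, and between 0.50 and 1.19 times for the other 6. The relatives H2-D1 and H2-Q4 had log2 fold changes of 0.08 (SE 0.078) and 0.09 (SE 0.071) in Notch3-/- mice and were not called.

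2410017I17Rik, a long intergenic RNA that overlaps Gm10499 and Gm17782 on the opposite strand, had 0.347, 0.760 and 1.35 CPM in Notch3-/- mice. In Notch3+/+ mice it had 0, 0.0626 and 0.148 CPM, with no read in 3 of the 8 libraries and 19 reads over all of them, against 210 reads over the Notch3-/- libraries. At 12 months it reached 0.197 CPM in TgNotch3R169C and 0.289 CPM in WT mice, under every Notch3-/- library. Its log2 fold change at 3 months, 3.52 (SE 0.49), was the largest of the 9 and had the widest error. Within the 8 Notch3-/- libraries it varied with Gm10499 (Pearson's r 0.84, Spearman's rho 0.93) and less with Gm8909 (r 0.70, rho 0.81). Replicate 7 was the lowest Notch3-/- library at 5 of the 8 genes that were higher there, Glo1, A930015D03Rik, 2410017I17Rik, Gm8909 and Gm10499.

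Gm6475, a processed pseudogene of Cd2ap, lies 28.85 Mb from Notch3, farther than any other of the 9. Cd2ap encodes an adaptor protein that links membrane proteins to the actin cytoskeleton. Over 1908 aligned coding bases the copy differed from Cd2ap by 67 substitutions, which gives 96.5% identity. A stretch of 240 bases with 20 differences is shown because it is a part where reads can separate the genes, with the differing bases in capitals; it starts at coding base 668 of Cd2ap and base 692 of Gm6475.
Cd2ap: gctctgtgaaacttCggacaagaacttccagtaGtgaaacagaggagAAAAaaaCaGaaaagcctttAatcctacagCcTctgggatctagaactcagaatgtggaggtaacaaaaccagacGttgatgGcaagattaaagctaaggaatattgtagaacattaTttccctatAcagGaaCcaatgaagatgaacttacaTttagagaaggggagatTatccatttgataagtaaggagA
Gm6475: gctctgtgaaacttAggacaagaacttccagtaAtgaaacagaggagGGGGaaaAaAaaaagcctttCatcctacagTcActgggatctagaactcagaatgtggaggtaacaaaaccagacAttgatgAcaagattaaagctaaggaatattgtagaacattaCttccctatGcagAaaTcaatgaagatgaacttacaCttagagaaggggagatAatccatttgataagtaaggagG
Gm6475 had 0.752, 1.40 and 2.10 CPM in Notch3-/- mice and 0.118, 0.271 and 0.449 CPM in their controls. At 12 months it had 0.180 to 0.460 CPM in TgNotch3R169C and 0.0757 to 0.356 CPM in WT mice, all below the lowest Notch3-/- library. The log2 fold change at 3 months was 2.31 (SE 0.28). Cd2ap, counted at 121.0 to 151.3 CPM in Notch3-/- and 125.2 to 152.2 CPM in Notch3+/+ mice, had a log2 fold change of -0.08 with SE 0.055 and was not called, and 0 of the 6 other genes tested within 500 kb of Gm6475 were called by edgeR or DESeq2, with 0 at an unadjusted p under 0.05.

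Position on chromosome 17 was described for all genes tested at 3 months. Of 861 genes tested on the chromosome, 25 were called (2.90%), against 89 of 16210 on the other autosomes (0.549%), where chromosome 9 had the highest share, 10 of 1021 (0.979%). By distance from Notch3, 17 of 272 genes under 5 Mb were called (6.25%), 4 of 320 at 5 to 20 Mb (1.25%) and 4 of 269 beyond 20 Mb (1.49%). Of the 9 genes, 7 lie under 5 Mb from Notch3, and Mrgprh and Gm6475 lie far from it. Leaving out these 9 and Notch3, 9 of the called genes lay under 5 Mb and 3 in each of the farther classes. In TgNotch3R169C mice, whose transgene is not on chromosome 17, 2 of 857 genes on the chromosome were called (0.233%), against 18 of 16243 on the other autosomes (0.111%). Notch3 was among these 2, and its count may hold reads of the rat transgene.

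**Figure D3:**
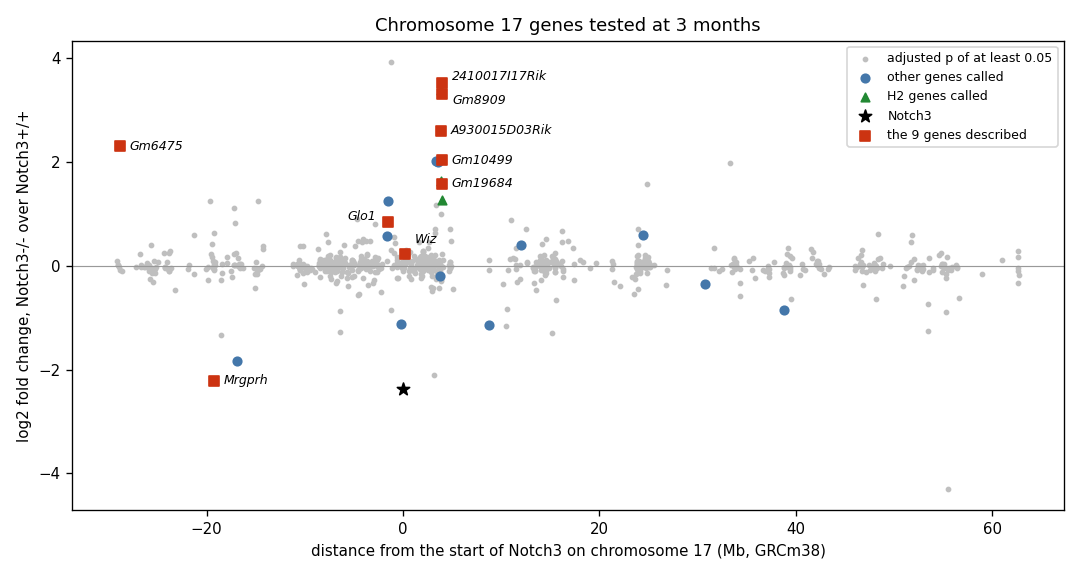
Log2 fold change of Notch3-/- over Notch3+/+ mice at 3 months for the 861 chromosome 17 genes tested, against distance from the start of Notch3 in Mb. The 9 genes described (squares), the other called genes (circles), the called H2 genes (triangles) and Notch3 (star) stand out from genes not called (grey), with 5 of the 9 stacked about 4 Mb from Notch3.

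The TgNotch3R169C line gives a test that did not choose the 9 genes. At 12 months 6 of the 9 passed the low-count filter and 0 were called by edgeR with Benjamini-Hochberg adjustment, against 20 of all 17731 genes tested, 0.113%. None of the 6 had an unadjusted p under 0.05, against 7.27% of all genes tested, and DESeq2, which returned a result for all 9, called 0 of them, against 0.339% of its genes. The ranges of the 8 TgNotch3R169C and 8 WT libraries overlapped for all 9, and 0.124% of genes tested did not overlap. The median absolute log2 fold change of the 6 was 0.11, beside 0.07 over all genes tested.

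Glo1 had a log2 fold change of -0.12 in TgNotch3R169C against WT mice (SE 0.074, edgeR adjusted p = 0.733), with a 95% interval from -0.27 to 0.04. Wiz had -0.02 (95% interval -0.15 to 0.10, edgeR adjusted p = 0.945) and Mrgprh -0.11 (-0.47 to 0.26, edgeR adjusted p = 0.908). A930015D03Rik had -0.17 (-0.71 to 0.36, edgeR adjusted p = 0.890), Gm19684 0.09 (-0.31 to 0.49, edgeR adjusted p = 0.928) and Gm10499 0.22 (-0.15 to 0.60, edgeR adjusted p = 0.786). The difference between the lines was not tested because the 3-month comparison chose the genes, so its estimates are no reference for these intervals. The 3 genes under the filter had wider intervals in a fit without it, from -1.02 to 1.04 for 2410017I17Rik, from -0.06 to 1.11 for Gm6475 and from -1.16 to 1.06 for Gm8909. P-values here set the difference between groups against the variation between mice.

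**Figure D4:**
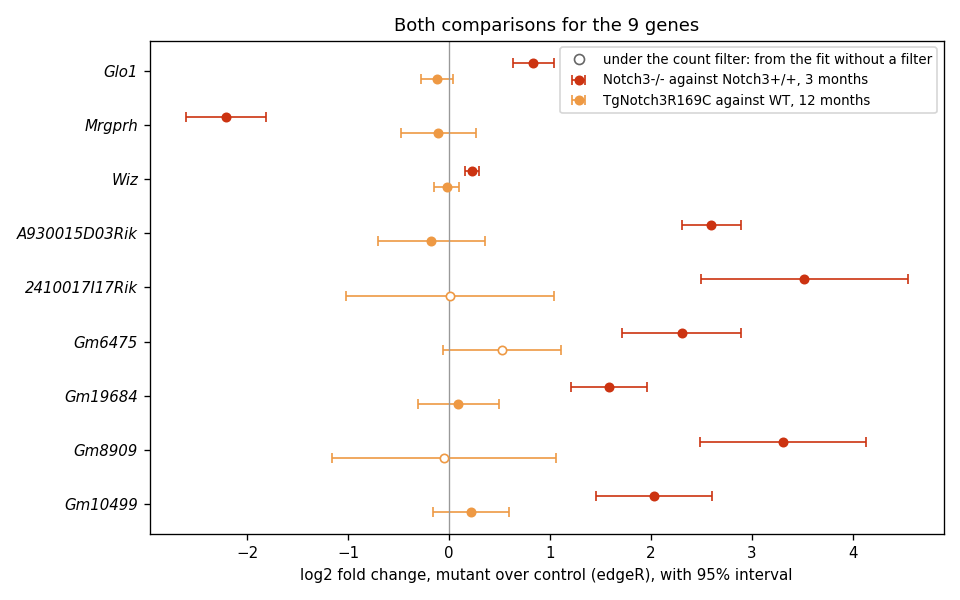
Log2 fold change with its 95% interval (horizontal axis) of the 9 genes in Notch3-/- against Notch3+/+ mice at 3 months (red) and TgNotch3R169C against WT mice at 12 months (orange). Every orange interval crosses 0, and open circles mark 3 genes under the count filter, taken from the fit without it.

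The mean level of the smooth muscle markers, most of which were lower in Notch3-/- arteries, was added to the 3-month fit as a covariate. Then 3 of the 9 genes were called, Mrgprh, A930015D03Rik and Gm8909, with 15 called over all genes, and the direction was kept at all 9. Under it the log2 fold changes of these 3 were -1.75 (SE 0.25), 2.70 (SE 0.21) and 3.83 (SE 0.60). The 6 genes no longer called had log2 fold changes of 0.77 (SE 0.15) for Glo1, 0.27 (SE 0.055) for Wiz, 3.29 (SE 0.81) for 2410017I17Rik, 2.45 (SE 0.45) for Gm6475, 1.56 (SE 0.30) for Gm19684 and 1.92 (SE 0.45) for Gm10499. The errors of all 9 were larger than without the covariate, and Mrgprh moved nearer to 0, from -2.21. This comparison chose the genes, and the markers themselves differed between its groups. The fit therefore cannot separate smooth muscle content from genotype, and its calls are a description.

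The genes whose levels most resembled the 9 were found from the mean of their standardised log2 CPM, with Mrgprh reversed in sign, by Pearson's r over the 32 libraries among 18546 genes. The highest were the class I genes H2-Bl (r = 0.93), H2-T24 (0.90) and H2-T10 (0.88), then Gm13443 (0.87) and AC165951.1 (0.86). Gm13443, the processed copy of Glo1, lies on chromosome 2, but Glo1 is among the 9 and reads of the near-identical pair may not be separated. The most opposed were Xirp1 (-0.87), which encodes an actin-binding protein of striated muscle, Cox4i2 (-0.83), Notch3 (-0.82), 9130008F23Rik (-0.81) and the orexin receptor gene Hcrtr1 (-0.81). These values mostly describe the distance of the Notch3-/- libraries from the rest. Without them, over 24 libraries, r was 0.49 for H2-Bl, 0.39 for H2-T24, 0.64 for H2-T10, -0.20 for Gm13443, -0.18 for AC165951.1 and 0.30 for Notch3, while Xirp1 stayed at -0.80. Xirp1 averaged 8.13 CPM in Notch3+/+ mice at 3 months, and 3.32 CPM in TgNotch3R169C and 4.41 CPM in WT mice at 12 months. These 24 libraries thus span both ages and lines, whose part in the values of r was not tested. All libraries share one pipeline and scaling.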

How the data were processed

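The deposited table held raw read counts per Ensembl gene for 32 libraries of polyA-selected, stranded mRNA. Per the submitters' processing notes, the authors used bcl2fastq 2.20.0.422, cutadapt 1.10, Bowtie2 2.2.8, STAR 2.5.3a and HTSeq 0.6.1p1 with genome build mm39. The annotation release and strand setting are not given in the sources used here. Of 55357 genes, 16744 had no counts. Levels are CPM with TMM factors over all libraries. Each mutant was compared with its age-matched controls by the quasi-likelihood test of edgeR 4.0.16 (R 4.3.3) after filterByExpr, with a Benjamini-Hochberg adjusted p under 0.05 as a call. DESeq2 1.42.0 was an alternative. The tests were tried on simulated counts. Distances, overlaps and transcript alignments (blastn 2.17.0) used the GRCm38 annotation, and promoters came from RefSeq. Depth was 20289487 to 54481934 reads, so genes under 1 CPM rest on few reads per library. Libraries were checked for duplicates, and none agreed within sampling noise. The genes and lists were chosen with earlier results of these data known. Named genes were the 9, Notch3, called genes of the lists with up to 3 abundant members, up to 10 other called chromosome 17 genes of either comparison by size of change, those nearest the threshold, and those most like the 9. The sequences of Glo1 and its processed copy are not reported here.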

Additional observations from a re-analysis of the deposited data

Results flagged for a closer look

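For 18 genes, the 9 and the sequence partners, neighbours and Notch3 described with them, each of the 72 groups of 8 libraries was examined for a library far from the others, by its gap to the nearest other library over the range of that group (critical value 0.526). In 7 groups a library passed it, and chance gives about 3.6. The same library stood out at 3 genes, Notch3+/+ replicate 8, namely Glo1 (share 0.622, 83.5 CPM with the next library at 66.8 CPM), Dnah8 (0.657, 12.9 against 7.31 CPM) and Gm13443 (0.919, 1.38 against 0.173 CPM). A930015D03Rik was low in Notch3+/+ replicate 7 (0.535, 0.484 against 0.675 CPM). H2-D1 was high in WT replicate 2 (0.756, 697.9 against 472.1 CPM), H2-Q4 was high in Notch3-/- replicate 3 (0.535, 86.4 against 74.1 CPM), and Notch3 was low in TgNotch3R169C replicate 3 (0.532, 107.6 against 168.7 CPM). The causes were not tested.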

How the results depend on the processing

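With RLE scaling, no filter, all 4 groups in 1 fit, scaling without chromosome 17, DESeq2 or any 1 library left out, all 9 genes were called at 3 months (9 to 9 over the 16 fits that leave out a library) and 0 at 12 months (0 to 0). With smooth muscle markers as a covariate, 3 were called at 3 months. The 3-month counts of the 9 largely follow from how the genes were chosen and are no test of them. Over all genes, 115 were called at 3 months, 282 by DESeq2, 174 with all groups in 1 fit, 15 with the covariate and 78 to 141 without 1 library, and 20 were called at 12 months, 75 by DESeq2, 32 with the covariate and 11 to 26 without 1 library (11 without WT replicate 3 or 4, 12 without TgNotch3R169C replicate 1 and 13 without WT replicate 7). At 12 months, log2 fold changes near 0 turned sign for Mrgprh (0.0497) and A930015D03Rik (0.0681) with the covariate and for Wiz (0.0031 and 0.0078) without WT replicate 7 or 8 (range without 1 library -0.0502 to 0.0078). The cause was not tested. With the replicate number as a block, 9 and 0 of the 9 genes were called and 97 and 6 of all genes, and the numbers were not taken to pair the mice: same-numbered libraries deviated together in 4 of 8 pairs at 3 months (r from -0.15 to 0.38) and 5 of 8 at 12 months (-0.24 to 0.45). Of the 8 mutant libraries, 4 at 3 months and 1 at 12 months were closest to the control of their own number, a hint from the data and not from the design. Depth limits Gm8909, 2410017I17Rik and Gm6475, which had few reads outside Notch3-/- mice.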

Other observations

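Beside the 9 genes, 12 other chromosome 17 genes outside the H2 family were called at 3 months, 6 as higher and 6 as lower in Notch3-/- mice. Cdsn, which encodes a cell adhesion protein of skin, had a mean of 1.58 CPM in knockout and 0.375 CPM in control mice (log2 fold change 2.02, SE 0.34), and 0.347 and 0.322 CPM in TgNotch3R169C and WT mice. Myom1, the gene of a sarcomere protein, had 65.5 and 118.0 CPM (log2 fold change -0.86, SE 0.16) and lies 38.84 Mb from Notch3. At 12 months it had 57.2 CPM in TgNotch3R169C and 64.4 CPM in WT mice. Gm20442 had means of 1.15 and 0.285 CPM in knockout and control mice (log2 fold change 2, SE 0.26), and Gm35576 had 0.155 and 0.562 CPM (log2 fold change -1.84, SE 0.25). In TgNotch3R169C mice Cdsn and Myom1 were not called by edgeR. The 1 chromosome 17 gene called there beside Notch3 was Plin4, which encodes a lipid droplet protein, with a log2 fold change of -0.48 (SE 0.080).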
